A study of Mus musculus with 24 samples.

Results

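The pancreas of mice with 1 intact copy of Nr5a2 was compared 48 h after the start of caerulein pancreatitis with the saline-treated pancreas of the same genotype. Both groups were chosen by genotype and treatment label, and they held 6 of the 24 libraries of the series, 3 animals per group. The HET 48 h group consisted of C57BL mice labelled Nr5a2 +/- that had received 7 hourly intraperitoneal injections of caerulein at 50 ug/kg and were killed 48 h after the first injection. The HET saline group consisted of Nr5a2 +/- mice of the same background given saline. Further groups used here were HET at 8 h and HET at 24 h of the same caerulein course, and Nr5a2 +/+ mice (called WT) at 48 h and after saline, each with 3 animals. The labels give no age, and they do not describe how the Nr5a2 allele was made. Caerulein is a cholecystokinin analog that overstimulates the enzyme-secreting acinar cells and causes a mild, self-limiting acute pancreatitis. The comparison addresses how far a pancreas with a single Nr5a2 copy had returned to its unchallenged expression state at 48 h.

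Acinar cells make up most of the exocrine pancreas and devote most of their messenger RNA to digestive enzymes, which are folded in the endoplasmic reticulum (ER) and stored in zymogen granules. During pancreatitis acinar cells reduce enzyme expression and gain features of duct cells, while macrophages enter the tissue and stellate cells deposit matrix. Recovery restores acinar differentiation. Nr5a2 (also called LRH-1) is a nuclear receptor that, together with the Ptf1a complex, drives acinar enzyme genes.

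The deposited table states no unit, and its values are taken as FPKM because the submitters' processing notes name Cuffnorm. In FPKM the fragments of a gene are divided by its length and by a measure of library size. Read depth cannot be recovered from them, so the values carry no counting interval. Changes are log2 fold changes of FPKM + 1 with their standard error, which understate the change of genes near or below 1 FPKM, and adjusted p-values are from limma over all genes tested. Each library came from a different animal. The p-values of limma rest on the spread between animals within all 8 groups, moderated across genes, and not on the compared animals alone. FPKM summed to 217205 to 279109 per HET 48 h library, against 745601 to 1400108 per HET saline library. Libraries correlated across genes at r = 0.927 to 0.933 within HET 48 h and at r = 0.912 to 0.925 within HET saline, and at r = 0.738 to 0.844 between the groups. Replicate 3 of HET 48 h stood apart and was the farthest from saline, at r = 0.738 to 0.772. All 3 HET 48 h libraries were made with a v2 library guide and 8 PCR cycles, and all 3 HET saline libraries with an earlier guide and 10 cycles, so guide and treatment cannot be told apart in this comparison. HET at 8 h shares the guide of HET 48 h, and HET at 24 h shares the guide of HET saline. The labels give no sex, and transcripts of both sexes appeared in each group. The Y-linked Eif2s3y was listed at 11.3, 0 and 9.72 FPKM in HET 48 h, against 0, 0 and 3.66 FPKM in HET saline. Xist, which female cells express from the inactive X chromosome, was at 1.23, 15 and 0.29 FPKM in HET 48 h, against 11.1, 9.13 and 0 FPKM in HET saline. In replicate 2 of WT 48 h, Xist (20.5 FPKM) and Eif2s3y (3.71 FPKM) were both present. Replicates 1 and 3 of HET 48 h also listed both, with Xist low.

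Of 12856 genes tested, 5682 (44.2%) passed an adjusted p of 0.05 between HET 48 h and HET saline. Of these, 3107 (24.2% of those tested) were higher and 2575 (20.0%) were lower at 48 h. Changes of at least 2-fold numbered 1009 among the higher genes and 1229 among the lower, and changes of at least 8-fold numbered 30 and 95. The lower genes were concentrated among abundant transcripts. Of the 50 genes averaging at least 1000 FPKM over all 24 libraries, 78% were lower and 8% higher. Of the 8002 genes averaging 1 to 10 FPKM over them, 15% were lower and 26.8% higher. The median change of all genes was 0.09. Scaling each library to its total without the digestive enzyme and Reg genes raised that median by 0.96 and the share of higher genes among those called to 95.3%, against 54.7% as reported. With that scaling 9238 of the 12856 genes were called higher and 454 lower. The gene lists below were chosen with earlier results of these data known. Their counts stand beside the shares of all tested genes, 24.2% higher and 20.0% lower, as a reference and not as a test. Directions below are relative to the authors' scaling. The other scaling is given beside the groups whose direction it turned. Among the genes printed here under the rule for named genes, it is given where a direction turned or a fall lost its call.

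**Figure D1:**
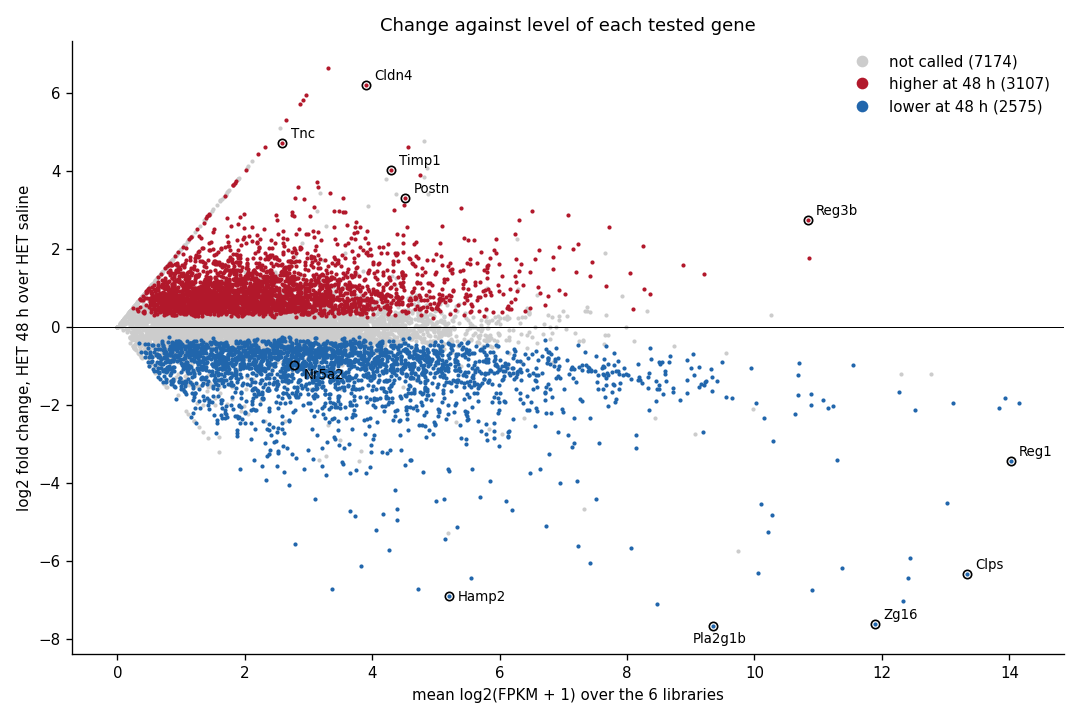
Each point is 1 tested gene, with its mean log2(FPKM + 1) over the 6 libraries on the x axis and its log2 fold change, HET 48 h over HET saline, on the y axis. Red points are the 3107 genes called higher at 48 h, blue points the 2575 called lower and grey points the rest. The abundant genes on the right lie mostly below 0, down to Zg16 and Clps.

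Nr5a2 itself was at 5.7, 3.75 and 2.64 FPKM in HET 48 h, against 9.09, 8.01 and 8.79 FPKM in HET saline. The groups did not overlap, and Nr5a2 fell by 0.98 ± 0.19 (adjusted p = 0.000368). In WT mice the same gene was at 6.06, 4.08 and 6.2 FPKM at 48 h, against 12.6, 9.26 and 10.2 FPKM after saline, and its change did not differ detectably between the genotypes (HET minus WT, -0.11 ± 0.27, adjusted p = 0.871). Under the scaling without enzyme and Reg genes the HET difference was 0.17 ± 0.26 (adjusted p = 0.562), so its direction rests on the authors' scaling.

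Transcripts of the digestive enzymes were far lower in HET 48 h than in HET saline. All 9 protease genes and all 7 lipase, amylase and nuclease genes that could be tested fell, with median changes of -5.10 and -5.13, against 20.0% of all tested genes lower. A lower level in whole tissue cannot separate fewer acinar cells from less RNA per acinar cell. Pla2g1b, a secreted phospholipase, was at 162, 76.9 and 6.54 FPKM in HET 48 h, against 15800, 6940 and 7430 FPKM in HET saline. It had the largest fall of the named genes (-7.67 ± 0.72, adjusted p = 2.14e-07). Ctrl, a chymotrypsin-like protease, was at 2030, 932 and 47.3 FPKM in HET 48 h, against 88400, 48000 and 46900 FPKM in HET saline (-7.02 ± 0.82, adjusted p = 1.8e-06). In both of these genes replicate 3 of HET 48 h was the lowest library and replicate 1 the highest of its group.

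Clps, the colipase that lets pancreatic lipase act on bile-coated fat, was at 3850, 1990 and 196 FPKM in HET 48 h, against 149000, 75900 and 70300 FPKM in HET saline (-6.34 ± 0.69, adjusted p = 8.25e-07). The elastase Cela3b, the trypsinogen Try10, the lipase-related Pnliprp2 and the amylase Amy1 fell, with log2 changes of -5.91, -5.10, -4.83 and -5.13. Rnase1, the pancreatic ribonuclease, was at 2460, 1240 and 64.7 FPKM in HET 48 h, against 81300, 41100 and 38800 FPKM in HET saline. The chymotrypsin Ctrc was at 12.6, 3.44 and 1.16 FPKM in HET 48 h, against 724, 321 and 355 FPKM in HET saline (-6.43 ± 1.28). Its standard error is the widest of these, and a single WT saline library, which shares the estimate of the spread, was listed at 12500 FPKM. Trypsin, lipase and amylase genes have near-identical copies, and how the authors' software divided reads among them is not given in the sources used here. Without replicate 3 of HET 48 h, the same 9 proteases and 7 lipase, amylase and nuclease genes were still called lower, with medians of -4.28 and -4.29.

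Several of the most abundant enzymes could not be tested because every HET saline library listed them at 0, which is read here as a failed estimate. Cpa1, a carboxypeptidase, was at 3950, 1690 and 165 FPKM in HET 48 h and listed at 0 in all 3 HET saline libraries. The same held for the carboxypeptidase Cpb1, the lipases Cel and Pnlip, the trypsinogens Prss2, Try4 and Try5, and the elastases Cela1 and Cela2a. Within HET 48 h these genes showed the same order of replicates, with Pnlip at 2630, 968 and 74.2 FPKM and Cel at 2180, 963 and 32.3 FPKM. Where HET at 8 h had values, Try4 was at 917, 487 and 38.2 FPKM at 48 h, against 4110, 4070 and 5650 FPKM at 8 h (-4.13 ± 0.84, adjusted p = 0.00101).

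**Figure D2:**
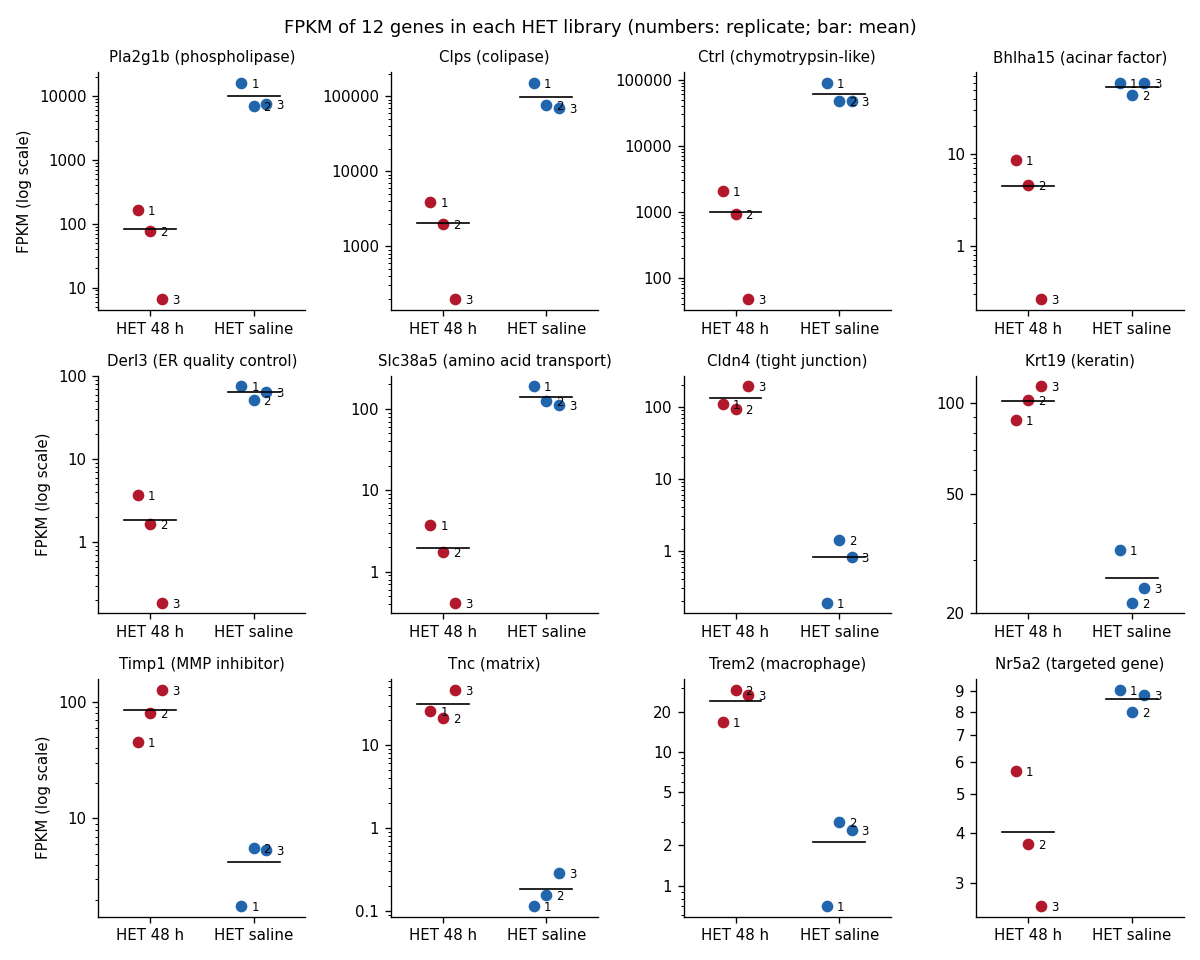
FPKM on a log scale for 12 genes in the 3 HET 48 h libraries (red, left) and the 3 HET saline libraries (blue, right) of each panel, with the replicate number beside each point and the group mean as a bar. Enzyme and secretory genes such as Pla2g1b and Clps are lower in every HET 48 h library, lowest in replicate 3, and Cldn4, Krt19, Timp1, Tnc and Trem2 are higher in every HET 48 h library.

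Expressed as a share of summed FPKM, the enzyme and Reg genes with estimates in all groups took 18.37%, 11.58% and 2.62% of the HET 48 h libraries, against 39.79%, 39.06% and 42.94% of the HET saline libraries. The means were 10.85% ± 7.90 at 48 h and 40.60% ± 2.06 in saline (SD, n = 3 each). Over all genes of the table, with zeros kept as values, they were 18.42% ± 13.76 at 48 h and 42.71% ± 2.28 in saline. The groups did not overlap, and an exact two-sided permutation test gave p = 0.10, the smallest value that 3 against 3 animals allow. The digestive enzymes alone took 2.87% ± 2.69 in HET 48 h and 32.95% ± 0.58 in HET saline. The Reg family alone took 7.99% ± 5.26 in HET 48 h and 7.65% ± 1.76 in HET saline (exact permutation test, p = 1.00), with overlapping values. In WT mice the joint share was 28.79%, 21.30% and 32.75% at 48 h, above every HET 48 h library.

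**Figure D3:**
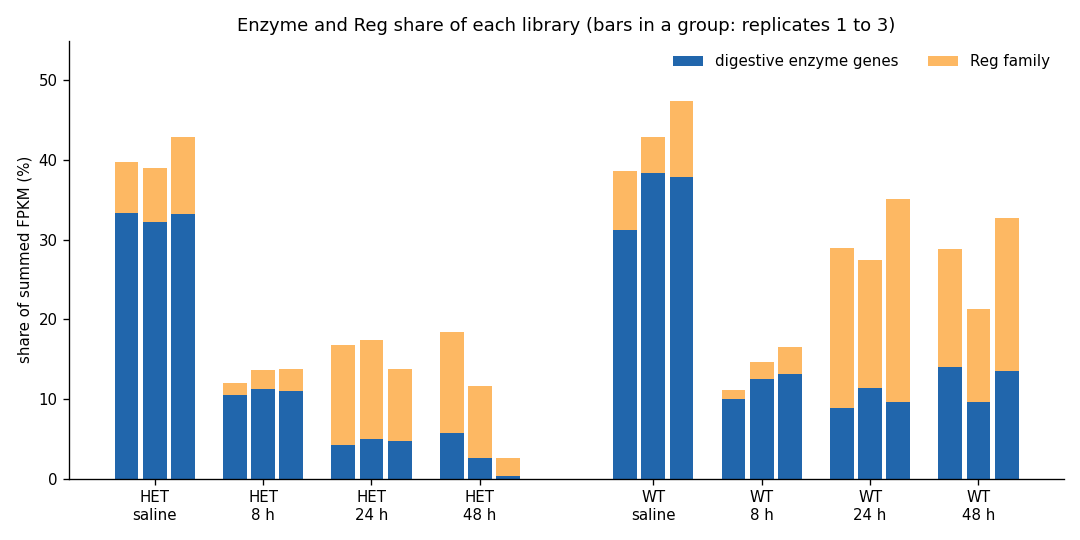
Bars give the percent of summed FPKM taken by digestive enzyme genes (blue) and by the Reg family (orange) in each of the 24 libraries, by genotype and time. In HET the blue part is 5.66% or less in the 3 libraries at 48 h and 32.28% to 33.30% in the 3 saline libraries.

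Promoters of 3 secretory genes with large falls are printed because each holds a match to CAAGGNCA, the pattern used here for the Nr5a2 recognition element. They are RefSeq promoters of build GRCm38.p6, given as the 250 bases upstream of the annotated start, 5′ to 3′ on the gene's strand. Capitals mark CAAGGNCA (or its complement on the other strand), the E-box CAGCTG bound by Ptf1a-type factors, and TGANTCA, a loose form of the AP-1 element. N stands for any base. Both strands were searched, and the marked matches do not overlap one another. The positions are chr8:105933863-105934112 on the minus strand for Ctrl, chr14:51146768-51147017 on the minus strand for Rnase1 and chr7:28540635-28540884 on the plus strand for Sycn, which encodes the granule protein syncollin.
Ctrl: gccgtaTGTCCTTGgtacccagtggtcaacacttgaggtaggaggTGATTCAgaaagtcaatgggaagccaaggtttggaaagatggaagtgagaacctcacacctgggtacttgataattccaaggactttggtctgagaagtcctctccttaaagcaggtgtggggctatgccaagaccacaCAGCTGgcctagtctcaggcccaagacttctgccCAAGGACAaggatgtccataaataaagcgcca
Rnase1: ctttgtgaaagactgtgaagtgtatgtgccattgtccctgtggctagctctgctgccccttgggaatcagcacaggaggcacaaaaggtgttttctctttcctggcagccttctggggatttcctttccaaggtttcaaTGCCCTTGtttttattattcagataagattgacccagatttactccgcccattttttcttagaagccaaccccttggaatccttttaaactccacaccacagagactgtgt
Sycn: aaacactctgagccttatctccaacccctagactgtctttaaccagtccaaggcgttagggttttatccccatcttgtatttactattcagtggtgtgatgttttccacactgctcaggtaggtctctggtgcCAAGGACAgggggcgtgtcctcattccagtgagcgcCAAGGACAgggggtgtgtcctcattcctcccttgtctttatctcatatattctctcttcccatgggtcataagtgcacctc
In Ctrl the elements start 244 and 32 bases before the annotated start, in Rnase1 111 bases and in Sycn 117 and 81 bases before it. CAAGGNCA occurred in 5.53% of all 32851 promoters of the table at this length. Of the 12 genes with the largest falls, 6 matched a promoter in the table and 3 of those held a match to the pattern. These are matches of letters and were not tested as binding sites.

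The rest of the secretory apparatus was lower as well. Of 19 zymogen granule and acinar membrane genes, 16 fell and 1 rose, with a median of -2.93. The one that rose was the calcium channel Itpr3, by 0.84. Zg16, a zymogen granule lectin, was at 1420, 645 and 20.9 FPKM in HET 48 h, against 85100, 45900 and 38100 FPKM in HET saline (-7.61 ± 0.90, adjusted p = 2.36e-06). Sycn was at 1010, 585 and 50 FPKM in HET 48 h, against 34300, 16800 and 19400 FPKM in HET saline (-6.17 ± 0.68). The acinar water channel gene Aqp12 and the granule membrane gene Cuzd1 fell by 5.43 and 5.66. Rab3d, a small GTPase on zymogen granules, was at 13.4, 9.24 and 6.31 FPKM in HET 48 h, against 56.1, 42 and 60 FPKM in HET saline (-2.37 ± 0.23). Tff2, a secreted trefoil peptide, was at 360, 210 and 21.5 FPKM in HET 48 h, against 15300, 7450 and 7560 FPKM in HET saline.

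Of 28 ER folding and quality control genes, 21 fell and none rose, with a median of -2.17. Pdia2, the pancreas-enriched disulfide isomerase, was at 121, 47.6 and 3.77 FPKM in HET 48 h, against 6510, 3590 and 3100 FPKM in HET saline (-7.10 ± 0.71, adjusted p = 3.88e-07). Derl3, a channel component of ER-associated degradation, was at 3.66, 1.65 and 0.187 FPKM in HET 48 h, against 75.6, 51.3 and 65.3 FPKM in HET saline (-4.72 ± 0.36). The oxidoreductase Ero1lb fell by 4.40, the degradation lectins Os9 and Edem1 by 2.19 and 2.43. Os9 is a case of a fall shared evenly by the 48 h libraries, at 15.2, 15.2 and 13.1 FPKM, against 78.3, 56.2 and 77.1 FPKM in HET saline.

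Of 39 genes of ER translocation and early secretory traffic, 32 fell and 1 rose, with a median of -1.24. Under the scaling without enzyme and Reg genes the median was 0.10, with 9 members called lower and 9 higher. The member that rose as reported was Tmed9, by 0.46. Tmed11, a cargo receptor of the p24 family, was at 5.13, 1.78 and 0 FPKM in HET 48 h, against 364, 205 and 265 FPKM in HET saline (-6.72 ± 0.47, adjusted p = 1.1e-08). Ssr4, a subunit of the translocon-associated complex, was at 69.8, 71.2 and 57.8 FPKM in HET 48 h, against 695, 433 and 488 FPKM in HET saline. Tmed10 and the signal peptidase subunit Spcs3 each fell by 1.69. Scaled without enzyme and Reg genes, Spcs3 was at -0.40 and lost its call.

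Amino acid supply and creatine synthesis genes, which are strongly expressed in acinar cells, followed the same direction. Of 20 tested, 17 fell and 1 rose, with a median of -2.27. Slc38a5, a glutamine transporter, was at 3.7, 1.73 and 0.417 FPKM in HET 48 h, against 189, 124 and 112 FPKM in HET saline (-5.72 ± 0.40, adjusted p = 1.12e-08). Gnmt, the glycine methyltransferase that consumes S-adenosylmethionine, was at 4.32, 2.03 and 0.265 FPKM in HET 48 h, against 133, 86.3 and 86.7 FPKM in HET saline. Asns, asparagine synthetase, was at 64.2, 49.9 and 31.2 FPKM in HET 48 h, against 441, 228 and 291 FPKM in HET saline (-2.70 ± 0.26). The neutral amino acid transporter Slc7a8 fell by 1.82, and the aromatic amino acid transporter Slc16a10 was the member that rose, by 0.64.

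Transcription factors that maintain acinar identity were lower at 48 h. Of 13 tested, 10 fell and none rose, with a median of -1.24. Under the scaling without enzyme and Reg genes the median was -0.01, with 4 called lower and 2 higher. Bhlha15 (Mist1), which organises the secretory machinery, was at 8.69, 4.58 and 0.263 FPKM in HET 48 h, against 58.7, 43.7 and 59 FPKM in HET saline (-3.73 ± 0.46, adjusted p = 4.45e-06). Rbpjl, the acinar partner of Ptf1a, was at 13.2, 6.48 and 1.63 FPKM in HET 48 h, against 54.3, 50.8 and 65.8 FPKM in HET saline (-3.14 ± 0.39, adjusted p = 3.85e-06). Ptf1a, chosen after its values were seen, was at 12.5, 8.02 and 1.72 FPKM in HET 48 h, against 37.6, 25.1 and 41.6 FPKM in HET saline (-2.34 ± 0.43). Foxa3 and Creb3l1 fell by 1.45 and 1.24, and in these the 48 h replicates lay close together, at 5.8, 6.89 and 6.96 FPKM for Creb3l1, against 14.9, 15.3 and 20.8 FPKM in HET saline. Scaled without enzyme and Reg genes, Foxa3 and Creb3l1 were at -0.34 and -0.01 and lost their calls.

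The Reg family of secreted lectins, induced in the injured pancreas, was split. Of 6 tested, 2 rose and 2 fell, with a median of 0.34 that was 1.40 without replicate 3 of HET 48 h, 1.70 scaled without enzyme and Reg genes and 2.26 with quantile normalization. Reg3b was at 7500, 6760 and 2110 FPKM in HET 48 h, against 343, 333 and 3060 FPKM in HET saline (2.75 ± 0.89, adjusted p = 0.0172). Reg3g was at 874, 810 and 188 FPKM in HET 48 h, against 47.2, 35.2 and 375 FPKM in HET saline (2.56 ± 0.83, adjusted p = 0.0185). In both genes the groups overlapped, because replicate 3 of HET saline was high and replicate 3 of HET 48 h low. Both calls were lost without replicate 1 or 2 of either group, with limma's adjusted p at 0.058 to 0.0863 for Reg3b and 0.0692 to 0.091 for Reg3g. Reg1 was at 11600, 6780 and 1640 FPKM in HET 48 h, against 79400, 41400 and 50000 FPKM in HET saline (-3.44 ± 0.57, adjusted p = 8.43e-05), and Reg3d fell by 3.10. Reg3b, Reg3g and Reg3d lost their calls with the spread taken from the compared groups alone. With quantile normalization Reg1 was at -0.22 (adjusted p = 0.72 by limma).

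Genes of the translation and respiratory machinery were lower by the authors' scaling. All 31 cytosolic ribosomal protein genes fell, with a median of -1.22. Rpl32 was at 669, 568 and 381 FPKM in HET 48 h, against 3240, 1620 and 1640 FPKM in HET saline (-1.96 ± 0.28, adjusted p = 1.52e-05). Of 27 respiratory chain subunits, 25 fell, with a median of -1.04. Atp5o, a subunit of ATP synthase, was at 46.5, 48.5 and 40.6 FPKM in HET 48 h, against 260, 154 and 130 FPKM in HET saline (-1.92 ± 0.20). Of 18 aminoacyl-tRNA synthetases, 9 fell and none rose, with a median of -0.39, and Mars, the methionyl-tRNA synthetase, fell by 1.74. Median of ratios scaling gave medians of -1.17 for ribosomal protein genes, -0.99 for respiratory subunits and -0.35 for tRNA synthetases. Quantile normalization gave -0.10, -0.44 and -0.20 in the same order. None of these 3 groups kept its direction under every scaling. Scaled without enzyme and Reg genes, their medians were 0.14 for ribosomal protein genes, 0.30 for respiratory subunits and 0.88 for tRNA synthetases, and quantile normalization left 4 ribosomal protein genes lower and 4 higher. Mars was at -0.43 under the scaling without enzyme and Reg genes, and Rpl32 at -0.02 with quantile normalization. Both lost their calls there.

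Genes grouped here under acinar dedifferentiation and injury were higher at 48 h. Which cells of the whole tissue gave these rises was not tested. Of 22 dedifferentiation and injury genes, 21 rose and none fell, with a median of 1.45, against 24.2% of all tested genes higher. Cldn4, a tight junction claudin of duct-like epithelium, was at 112, 93.3 and 194 FPKM in HET 48 h, against 0.189, 1.41 and 0.827 FPKM in HET saline. It was the largest rise of the named genes (6.20 ± 0.45, adjusted p = 1.82e-08). S100a11, a calcium-binding protein, was at 155, 223 and 208 FPKM in HET 48 h, against 51.1, 48.6 and 46.9 FPKM in HET saline (1.96 ± 0.16, adjusted p = 4.5e-08). Anxa10, an annexin of gastric-type epithelium, was at 6.54, 5.42 and 7.33 FPKM in HET 48 h and listed at 0 in all 3 HET saline libraries. Anxa3, another annexin, rose by 2.13.

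Duct and progenitor genes were mixed, with 6 of 17 higher and 2 lower (median 0.35), against 24.2% of all tested genes higher and 20.0% lower. Krt19, the duct keratin, was at 88.4, 103 and 114 FPKM in HET 48 h, against 32.5, 21.7 and 24.3 FPKM in HET saline (1.93 ± 0.22, adjusted p = 1.59e-06). Epcam, an epithelial adhesion protein, was at 37.8, 44 and 46.7 FPKM in HET 48 h, against 15.2, 9.32 and 8.04 FPKM in HET saline. Spp1, osteopontin, was at 205, 396 and 592 FPKM in HET 48 h, against 63.7, 35.5 and 50.1 FPKM in HET saline (2.88 ± 0.35). The duct factor Sox9, chosen after its values were seen, did not pass, with a change of -0.28 ± 0.24. Of 9 duct cell markers, 5 rose and 1 fell. The one that fell was Muc1, an apical mucin also expressed by acinar cells, at 48.2, 66.7 and 49.7 FPKM in HET 48 h, against 297, 143 and 188 FPKM in HET saline. The summed level of these markers was 359 to 787 FPKM in HET 48 h and 210 to 405 FPKM in HET saline, which overlap. Spp1 was the largest part of that sum in every HET 48 h library, and Muc1 in every HET saline library. Krt19 and Spp1 also belong to the duct and progenitor genes. The part of duct cell content in the duct gene results was not tested.

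Of 22 cytoskeleton genes, 20 rose and none fell, with a median of 1.28. The tropomyosin Tpm4 was at 48.5, 60.8 and 74.1 FPKM in HET 48 h, against 12.9, 17.5 and 17.7 FPKM in HET saline (1.86 ± 0.17, adjusted p = 1.14e-07). Tmsb10, an actin-sequestering thymosin, rose by 2.29 and the tubulin Tubb6 by 1.85. Cd44, the hyaluronan receptor, was at 19.9, 19.9 and 28 FPKM in HET 48 h, against 2.13, 5.36 and 4.98 FPKM in HET saline (2.24 ± 0.31).

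**Figure D4:**
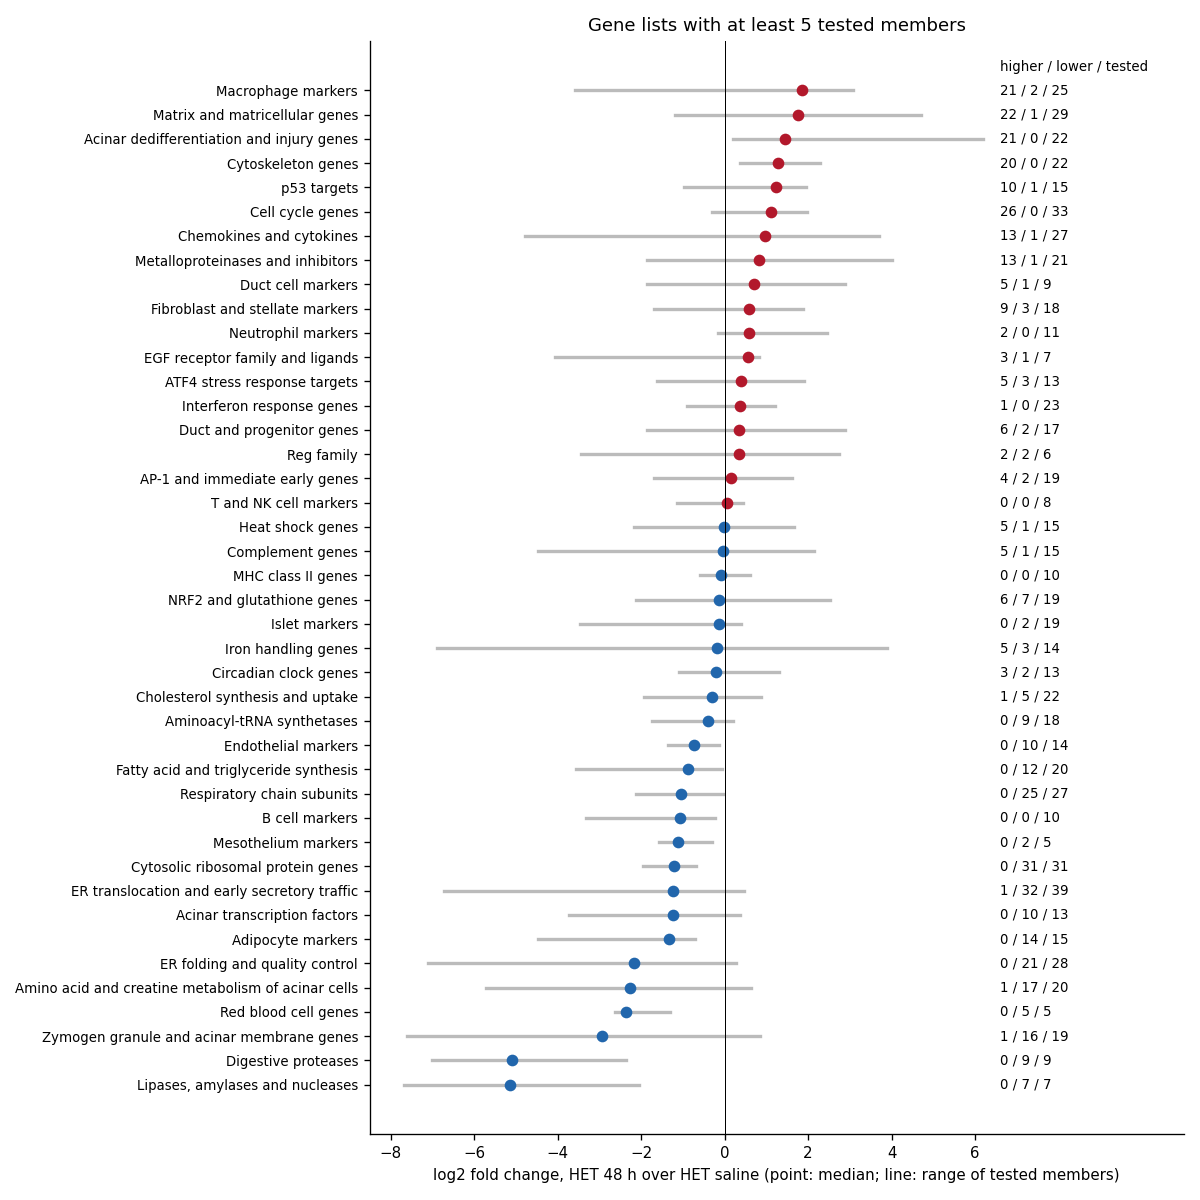
Each row is a gene list with at least 5 tested members, sorted by median. Points give the median and lines the range of log2 fold changes, HET 48 h over HET saline, and the numbers at the right count the members called higher, called lower and tested. Digestive enzyme lists lie lowest, at -5.13 and -5.10, and macrophage markers highest, at 1.85.

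Extracellular matrix genes were among the largest rises. Of 29 matrix and matricellular genes, 22 rose and 1 fell, with a median of 1.75. Tnc, tenascin C, was at 26, 21.5 and 46.7 FPKM in HET 48 h, against 0.115, 0.153 and 0.284 FPKM in HET saline (4.70 ± 0.27, adjusted p = 1.73e-09). Postn, periostin, was at 46.8, 87.1 and 85.9 FPKM in HET 48 h, against 4.35, 8.04 and 7.08 FPKM in HET saline (3.29 ± 0.36). Lox, which cross-links collagen, was at 31.3, 35 and 40.8 FPKM in HET 48 h, against 1.85, 3.63 and 2.78 FPKM in HET saline (3.31 ± 0.20, adjusted p = 2.26e-09). Thbs1, thrombospondin 1, rose by 3.12, and the collagens Col12a1 and Col5a1 rose by 2.59 and 2.55. The fibrillar collagen Col1a1, chosen after its values were seen, was at 129, 217 and 296 FPKM in HET 48 h, against 20.6, 40.9 and 29.9 FPKM in HET saline (2.74 ± 0.35). The member that fell was Dcn, decorin (-1.18 ± 0.34), chosen after its values were seen.

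Of 21 metalloproteinases and inhibitors, 13 rose and 1 fell, with a median of 0.82. Timp1, a metalloproteinase inhibitor, was at 45.3, 80.7 and 128 FPKM in HET 48 h, against 1.78, 5.61 and 5.37 FPKM in HET saline (4.01 ± 0.40, adjusted p = 3.4e-07). Mmp7, matrilysin, which metaplastic epithelium secretes, was at 11.6, 33.4 and 23.1 FPKM in HET 48 h, against 1.75, 0.981 and 0.959 FPKM in HET saline (3.31 ± 0.46). Mmp14, a membrane-anchored collagenase, rose by 1.77, and the member that fell was Serpinb2, by 1.86.

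Of 18 fibroblast and stellate markers, 9 rose and 3 fell. Acta2, the smooth muscle actin of activated stellate cells, was at 59.2, 50.8 and 35 FPKM in HET 48 h, against 9.78, 13.9 and 14.9 FPKM in HET saline (1.82 ± 0.30, adjusted p = 8.94e-05), and Tagln rose by 1.89. Gsn, gelsolin, was at 58.8, 72.3 and 43.8 FPKM in HET 48 h, against 182, 219 and 163 FPKM in HET saline (-1.69 ± 0.18), and Dpep1 fell by 1.08, turning to 0.05 under the scaling without enzyme and Reg genes. Under that scaling Gsn was at -0.34 and lost its call. The summed level of the fibroblast markers was 440 to 573 FPKM in HET 48 h and 393 to 547 FPKM in HET saline, which overlap. The summed level of the matrix genes was 1500 to 2220 FPKM in HET 48 h and 495 to 865 FPKM in HET saline, which do not. The part of fibroblast content in the matrix result was not tested.

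The promoters of 2 genes with large rises are printed because they hold matches to the loose AP-1 pattern TGANTCA, which reads the same on both strands. Positions are chr5:134946935-134947184 on the minus strand for Cldn4 and chr9:7691840-7692089 on the plus strand for Mmp7, with the same build, length and capitals as above.
Cldn4: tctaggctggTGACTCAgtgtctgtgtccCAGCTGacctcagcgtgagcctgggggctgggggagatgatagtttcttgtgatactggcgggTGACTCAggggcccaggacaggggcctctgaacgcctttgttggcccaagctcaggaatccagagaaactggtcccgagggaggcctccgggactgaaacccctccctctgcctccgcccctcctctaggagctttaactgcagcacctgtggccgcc
Mmp7: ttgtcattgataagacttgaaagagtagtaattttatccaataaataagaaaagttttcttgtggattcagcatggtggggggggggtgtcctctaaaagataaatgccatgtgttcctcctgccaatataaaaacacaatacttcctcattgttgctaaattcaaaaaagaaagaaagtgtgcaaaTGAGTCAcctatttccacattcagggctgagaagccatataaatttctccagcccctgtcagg
In Cldn4 the elements start 240 and 158 bases before the annotated start, and in Mmp7 63 bases before it. TGANTCA occurred in 6.75% of all promoters of the table, and in 4 of the 14 promoters that the table holds for 9 of the 12 largest rises. It was also in 2 of the 6 promoters of the largest falls (33.3%, against 28.6% of the promoters of the rises). Those 2 matches read TGATTCA in Ctrl and TGAGTCA in Hamp2, and the matches in the rises read TGACTCA or TGAGTCA. CAAGGNCA was in none of those 14 promoters of the rises.

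Macrophage transcripts were higher in every HET 48 h animal. Of 25 macrophage markers, 21 rose and 2 fell, with a median of 1.85, and their summed level was 1020 to 1750 FPKM in HET 48 h, against 293 to 619 FPKM in HET saline. Trem2, a lipid-sensing receptor of tissue-repair macrophages, was at 16.8, 29.2 and 26.6 FPKM in HET 48 h, against 0.709, 3 and 2.63 FPKM in HET saline (3.07 ± 0.39, adjusted p = 5.44e-06). Ccr2, the receptor by which monocytes are recruited, was at 20, 34.5 and 40.3 FPKM in HET 48 h, against 1.8, 3.53 and 3.91 FPKM in HET saline (2.98 ± 0.43). Cx3cr1 and Ms4a7 rose by 2.24 and 2.94. Whether more macrophages or more RNA per macrophage gave these values cannot be told apart in bulk tissue. Retnla and Lyz1 were the 2 members that fell, by 3.59 and 0.92. Of 15 complement genes, 5 rose and 1 fell, and those that rose included the C1q chain C1qb and the anaphylatoxin receptors C3ar1 and C5ar1, by 1.74, 2.14 and 1.66. The one that fell was the adipocyte-expressed Cfd, by 4.46. The complement median of -0.03 turned to 1.28 under the scaling without enzyme and Reg genes.

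Of 27 chemokines and cytokines, 13 rose and 1 fell, with a median of 0.97. Cxcl16, a scavenger chemokine, was at 23.6, 30.4 and 30.4 FPKM in HET 48 h, against 3.96, 6.6 and 5.13 FPKM in HET saline (2.24 ± 0.24, adjusted p = 8.47e-07). Ccl2, the ligand of Ccr2, was at 17.9, 21.5 and 22.8 FPKM in HET 48 h, against 0.496, 3.71 and 2.99 FPKM in HET saline (2.83 ± 0.35). Csf1, the macrophage growth factor, was at 19.1, 18 and 18.9 FPKM in HET 48 h, against 3.77, 6.02 and 4.33 FPKM in HET saline (adjusted p = 2.26e-06). The B cell attractant Cxcl13 was the member that fell, by 4.78. Il1rn, the interleukin 1 receptor antagonist, was at 24, 37.5 and 32.2 FPKM in HET 48 h, against 0.849, 2.98 and 0.935 FPKM in HET saline (3.71 ± 0.49). Lcn2, lipocalin 2, an iron-scavenging acute phase protein, was at 51.1, 155 and 138 FPKM in HET 48 h, against 4.25, 5.76 and 8.53 FPKM in HET saline (3.90 ± 0.45). The protease inhibitor Serpinb6b and the secreted C1qtnf6, both among the largest rises, increased by 3.59 and 3.27.

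For other leukocyte programmes the counts changed mainly under the scaling without enzyme and Reg genes. Median of ratios scaling and quantile normalization called 1 and 2 interferon genes and 2 and 2 neutrophil markers higher. Neither called any MHC class II gene, B cell marker or T and NK cell marker. Of 23 interferon response genes 1 rose, Irf8 (1.20 ± 0.40, adjusted p = 0.0206), against 24.2% of all tested genes higher, and its call was lost without replicate 1 or 3 of HET saline or replicate 2 or 3 of HET 48 h (adjusted p = 0.053 to 0.0981 by limma). Scaled without enzyme and Reg genes, 17 of the 23 interferon genes (median 1.29), 6 of 11 neutrophil markers, 3 of 10 MHC class II genes and 1 of 8 T and NK cell markers were higher, against a shift of 0.96 in the median of all genes. Under that scaling 9238 of all 12856 genes were higher. The MHC class II median was -0.09 as reported and 1.10 under that scaling. As reported, none of 10 MHC class II genes, 10 B cell markers or 8 T and NK cell markers passed in either direction by limma. At an unadjusted p under 0.05 the counts were 0, 1 and 0, against 6631 of all 12856 genes. Of 11 neutrophil markers 2 rose, Csf3r and Retnlg, and Retnlg was at 6.21, 25.7 and 13.9 FPKM in HET 48 h, against 0, 2.44 and 4.1 FPKM in HET saline. The groups did not overlap, but Retnlg lost its call without replicate 1 of HET saline or replicate 2 or 3 of HET 48 h, with limma's adjusted p at 0.135, 0.102 and 0.0665. B cell markers summed to 1.77 to 36.3 FPKM in HET 48 h and 23.9 to 103 FPKM in HET saline. Jchain, of antibody-secreting cells, was at 0.16, 14.4 and 0.614 FPKM in HET 48 h, against 13.5, 61.4 and 30.3 FPKM in HET saline (-3.31 ± 1.46, adjusted p = 0.075).

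Proliferation genes were higher at 48 h. Of 33 cell cycle genes, 26 rose and none fell, with a median of 1.12. Mcm7, a subunit of the replicative helicase, was at 12.6, 11 and 12.1 FPKM in HET 48 h, against 2.85, 4.5 and 3.55 FPKM in HET saline (1.49 ± 0.18, adjusted p = 3.44e-06). Ccna2, cyclin A2, was at 3.92, 5.29 and 5.27 FPKM in HET 48 h, against 1.22, 1.38 and 1.26 FPKM in HET saline. Stmn1 and the mitotic kinesin Kif20a rose by 1.97 and 1.34. Of 15 p53 targets, 10 rose and 1 fell, with a median of 1.24. The proapoptotic Bax was at 42.4, 39.4 and 36.9 FPKM in HET 48 h, against 11.1, 9.96 and 8.54 FPKM in HET saline (1.90 ± 0.17, adjusted p = 1.07e-07), and Phlda3, Eda2r and Zmat3 rose by 1.94, 1.55 and 1.00, while Plk2 fell by 0.98.

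Stress and immediate early genes were mixed against saline. Of 19 AP-1 and immediate early genes, 4 rose and 2 fell, against 24.2% of all tested genes higher and 20.0% lower. Neither count was above those shares. Scaled without enzyme and Reg genes, 10 of 19 AP-1, 9 of 13 ATF4 and 12 of 15 heat shock genes were higher and none lower, against 9238 of all 12856 genes higher. The heat shock median was 1.27 with that scaling, against -0.02 as reported. Atf3 was at 12.8, 7.8 and 6.9 FPKM in HET 48 h, against 2.04, 2.06 and 2.61 FPKM in HET saline (1.61 ± 0.24), Maff and Fosl2 rose by 1.10 and 0.95, and Myc fell by 1.13. The call of Myc was lost without replicate 1 of HET saline or replicate 3 of HET 48 h, and its direction turned to 0.11 ± 0.37 under the scaling without enzyme and Reg genes. Of 13 ATF4 stress targets, 5 rose and 3 fell. Atf4 and Atf5 fell, with changes of -1.17 and -1.44, and Sesn2 rose by 1.07. For Atf4 the direction turned, to 0.17 ± 0.24, under the same scaling, and Atf5, at -0.11, lost its call. Of 15 heat shock genes, 5 rose and 1 fell, the small heat shock protein gene Cryab, by 2.17. Hsp90ab1 was at 475, 348 and 466 FPKM in HET 48 h, against 157, 154 and 183 FPKM in HET saline (1.37 ± 0.15, adjusted p = 1.09e-06), and Hspa8 rose by 1.66. Of 7 EGF receptor family genes, the receptors Erbb3 and Erbb2 and the ligand Hbegf rose by 0.82, 0.57 and 0.75. The call of Hbegf was marginal (adjusted p = 0.0434 by limma), and it was lost when any of 5 of the 6 libraries was left out, at 0.49 without replicate 3 of HET saline, and at 0.25 with a pseudocount of 5. The ligand Egf was at 1.28, 0.558 and 0.11 FPKM in HET 48 h, against 29.7, 24.5 and 22 FPKM in HET saline (-4.05 ± 0.27, adjusted p = 6.57e-09).

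Fatty acid synthesis genes were lower at 48 h together with adipocyte markers. Of 20 fatty acid and triglyceride synthesis genes, 12 fell and none rose, with a median of -0.87 that turned to 0.05 under the scaling without enzyme and Reg genes. Fasn, fatty acid synthase, was at 10.5, 16.1 and 7.71 FPKM in HET 48 h, against 60.5, 131 and 61.4 FPKM in HET saline (-2.74 ± 0.36, adjusted p = 6.89e-06). Thrsp, a lipogenic regulator, was at 0.193, 2.49 and 0.0895 FPKM in HET 48 h, against 15.5, 41.2 and 9.43 FPKM in HET saline. Of 15 adipocyte markers, 14 fell, with a median of -1.34, and their summed level was 41.1 to 132 FPKM in HET 48 h, 304 to 657 FPKM in HET saline, 72.9 to 245 FPKM in WT 48 h and 80.6 to 168 FPKM in WT saline. The HET saline libraries were thus the highest in fat transcripts of the 4 groups. Fabp4 was at 23, 44.1 and 14.9 FPKM in HET 48 h, against 114, 172 and 139 FPKM in HET saline, and Retn fell by 3.30. Scaled without enzyme and Reg genes, Fabp4 was at -1.12 and lost its call. The part of adipose tissue in the lipid gene result was not tested. Of 22 cholesterol genes, 5 fell and 1 rose, a share of falls near the 20.0% of all genes. The median of -0.30 turned to 0.61 under the scaling without enzyme and Reg genes, with 13 higher and 1 lower, against 9238 of all 12856 genes higher. Insig1, which restrains sterol synthesis, was at 8.98, 8.13 and 4.14 FPKM in HET 48 h, against 29.5, 29.1 and 27.4 FPKM in HET saline (-1.93 ± 0.22, adjusted p = 1.51e-06). Fdps, Sc5d and Mvd fell by 1.06, 0.48 and 0.41 and turned under the same scaling, to 0.13, 0.67 and 0.60. Sc5d and Mvd also lost their calls with the spread taken from the compared groups alone or without some single libraries.

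Markers of other tissue compartments also differed. Of 14 endothelial markers, 10 fell and none rose, with a median of -0.74 that turned to 0.17 under the scaling without enzyme and Reg genes. Plvap, a protein of fenestrated endothelium, was at 13.2, 12.7 and 7.01 FPKM in HET 48 h, against 28.7, 28 and 29.1 FPKM in HET saline (-1.35 ± 0.21). Under that scaling Plvap was at -0.07 and lost its call. Kdr and Pecam1 fell by 0.96 and 0.99 and turned, to 0.02 and 0.21. All 5 red blood cell genes fell, with a median of -2.35. Hba-a1, alpha globin, was at 1.63, 1.12 and 1.32 FPKM in HET 48 h, against 11.5, 18 and 10.7 FPKM in HET saline (-2.58 ± 0.40). Of 19 islet markers 2 fell, Ttr and Pcsk1, by 3.46 and 1.03. The islet median of -0.14 turned to 0.69 under the same scaling and to 0.16 without replicate 3 of HET 48 h. Pcsk1 was at -0.36 under that scaling and lost its call. Mesothelial Upk3b was at 1.74, 6.04 and 3.18 FPKM in HET 48 h, against 8.34, 24.4 and 7.67 FPKM in HET saline. Upk3b was at -0.44 under the same scaling and lost its call (adjusted p = 0.525 by limma). Its call was also lost with the spread taken from the compared groups alone or without some single libraries. Of 2 tested Schwann cell markers 1 rose, Ncam1, by 1.25.

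Mixed groups also turned under the scaling without enzyme and Reg genes. Their medians were -0.19 as reported and 0.99 with that scaling for iron handling, -0.13 and 1.13 for NRF2 and glutathione genes, and -0.20 and 0.68 for circadian clock genes. In iron handling, 5 of 14 genes rose and 3 fell, against 24.2% of all tested genes higher and 20.0% lower. Hamp2, a hepcidin gene expressed in mouse pancreas, was at 6.82, 2.77 and 0.328 FPKM in HET 48 h, against 721, 383 and 232 FPKM in HET saline (-6.88 ± 0.51, adjusted p = 2.12e-08). The ferroxidase Cp rose by 1.28. Ferritin heavy chain, Fth1, fell by 1.08 but was higher, by 0.28 and 0.53, under the scaling without enzyme and Reg genes and under quantile normalization. Of 19 NRF2 and glutathione genes, 6 rose and 7 fell. Gpx2, an epithelial glutathione peroxidase, was at 9.42, 5.9 and 10.9 FPKM in HET 48 h, against 0.701, 0.655 and 0.576 FPKM in HET saline (2.53 ± 0.28), Txnrd1 rose by 1.21, and Gstm1 and Sod2 fell by 2.13 and 1.45. Scaled without enzyme and Reg genes, Sod2 was at -0.28 and lost its call. Of 13 circadian clock genes, 3 rose and 2 fell, neither a larger share than among all tested genes. Bhlhe40 and Dbp rose by 1.30 and 0.83, and Cry1 and Arntl fell by 1.08 and 0.69, the fall of Arntl turning to 0.27 under the scaling without enzyme and Reg genes. Cry1 was at -0.20 under the same scaling and lost its call. The labels do not give the hour of killing.

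The earlier HET groups place the 48 h values in the course of the injury, within a library guide. Against HET at 8 h, which shares the guide, 3009 genes were higher at 48 h (23.4%) and 3679 lower (28.6%), together 52.0% of 12862 tested. Scaled without enzyme and Reg genes, 85.9% of the calls were higher, against 45.0% as reported. All 10 proteases tested and 6 of 7 lipase, amylase and nuclease genes were lower at 48 h than at 8 h. Cell cycle genes stood higher at 48 h than at 8 h in 31 of 33 cases and matrix genes in 21 of 29. Immediate early genes were lower at 48 h in 15 of 19 cases and heat shock genes in 14 of 15. Atf3 was at 12.8, 7.8 and 6.9 FPKM at 48 h, against 235, 197 and 261 FPKM at 8 h. Tnc was at 26, 21.5 and 46.7 FPKM at 48 h, against 1.16, 0.842 and 1.63 FPKM at 8 h. Krt19 was at 88.4, 103 and 114 FPKM at 48 h, against 371, 355 and 307 FPKM at 8 h.

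Between HET at 24 h and HET saline, which share the earlier guide, 5615 of 12843 genes passed (43.7%), 3073 higher (23.9%) and 2542 lower (19.8%). Scaled without enzyme and Reg genes, 94.9% were higher, against 54.7% as reported. This comparison shares its saline libraries with the 48 h one, so the values are set side by side only. Dedifferentiation genes were higher at 24 h in 21 of 21 cases, ribosomal protein genes lower in 30 of 31 and proteases lower in 7 of 9. Matrix genes were higher in 7 of 29 at 24 h and in 22 of 29 at 48 h. Col12a1 was at 0.436, 0.976 and 0.903 FPKM at 24 h and at 7.8, 7.51 and 7.1 FPKM at 48 h. Cholesterol genes were higher than saline at 24 h in 12 of 22 cases and lower in none, and Insig1 was at 27.5, 34.5 and 33.5 FPKM at 24 h. Bhlha15 was at 0.396, 0.846 and 0.781 FPKM at 24 h, below replicates 1 and 2 of HET 48 h and above replicate 3. The difference between 24 h and 48 h was not tested, because it coincides with the change of guide.

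The 48 h change was set against the same change in WT mice. In WT, 3258 of 12857 genes passed between 48 h and saline (25.3%), 1523 higher (11.8%) and 1735 lower (13.5%), and 97.7% of calls were higher under the scaling without enzyme and Reg genes, against 46.7% as reported. Without replicate 2 of WT 48 h, 1839 genes passed. The genotype difference of the change (HET minus WT) passed for 154 of 12855 genes (1.20%), 40 higher (0.311%) and 114 lower (0.887%). With the scaling without enzyme and Reg genes 99 of 123 calls (80.5%) were higher, against 40 of 154 as reported, and with quantile normalization 36.2% of 290. This count moved widely with the settings. Estimating the spread from the 4 compared groups alone left 6 genes, and leaving out 1 library gave 57 to 383. The count was 62 without replicate 3 of HET 48 h and 82 without replicate 1 of WT saline. It was 76 and 57 without replicates 1 and 3 of WT 48 h, and 383 without replicate 2 of WT 48 h. That library listed both Xist and Eif2s3y, as did replicates 1 and 3 of HET 48 h with Xist low. WT 48 h and WT saline differ in library guide as the HET groups do, except that 1 WT saline library is in neither guide's list.

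Some secretory genes had a lower change in HET than in WT, as had 114 of all 12855 genes (0.887%). They were 2 of 9 proteases, 1 of 6 lipase, amylase and nuclease genes, 3 of 19 granule genes, 5 of 28 ER folding genes and 3 of 39 translocation genes. Tmed11 was at 5.13, 1.78 and 0 FPKM in HET 48 h, against 364, 205 and 265 FPKM in HET saline, and at 96.1, 35.6 and 59.5 FPKM in WT 48 h, against 262, 350 and 283 FPKM in WT saline (HET minus WT, -4.41 ± 0.66, adjusted p = 0.00615). Hamp2, Pdia2, Tmed6, a further p24 family receptor, and Try10 differed by -4.16, -4.38, -3.78 and -3.77. With libraries scaled without enzyme and Reg genes, Pdia2, Tmed6 and Try10 were at -3.89, -3.29 and -3.28. All of these lost their calls there (adjusted p = 0.0649, 0.0611 and 0.0597 by limma). The acinar factors Bhlha15 and Rbpjl differed by -3.04 ± 0.66 and -2.46 ± 0.55. Bhlha15 was at 60.8, 29.8 and 52 FPKM in WT 48 h, against 74.5, 71.6 and 76.7 FPKM in WT saline, a change that did not pass (-0.69, adjusted p = 0.294). Pla2g1b missed the threshold (-4.12 ± 1.02, adjusted p = 0.0521).

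Of 22 dedifferentiation genes 1 had a higher change in HET than in WT, Cldn4, against 40 of all 12855 genes (0.311%). None of 17 duct and progenitor genes or 9 duct cell markers passed by limma. At an unadjusted p under 0.05 the counts were 7 and 3, against 2194 of all 12855 genes. Cldn4 was at 14, 65.1 and 13.9 FPKM in WT 48 h, against 2.69, 1.49 and 0.952 FPKM in WT saline, and its change differed by 2.97 ± 0.64 (adjusted p = 0.0277). Cdh1, E-cadherin, was at 49.7, 45 and 55.1 FPKM in HET 48 h, against 23.2, 15.9 and 18.1 FPKM in HET saline, and at 24, 30.5 and 24.3 FPKM in WT 48 h, against 31, 27.3 and 27.6 FPKM in WT saline. It rose in HET (1.36 ± 0.18) and did not pass in WT (-0.13, adjusted p = 0.657), with a difference of 1.48 ± 0.26 (adjusted p = 0.0122). Ctnnd1, the catenin that stabilises E-cadherin, differed by 1.19 ± 0.24. With libraries scaled without enzyme and Reg genes, Ctnnd1 was at 1.69 and lost its call (adjusted p = 0.0597 by limma). The phosphatase-family gene Nt5dc2, the chemokine Cxcl14 and the Fc receptor-like Fcrls differed by 1.91, 1.61 and 1.42. Fasn differed by -3.51 ± 0.51 (adjusted p = 0.00528) and was at 19.2, 34.5 and 16.4 FPKM in WT 48 h, against 15.4, 13.1 and 9.84 FPKM in WT saline. HET saline was the highest of the 4 groups for Fasn, as it was for the summed adipocyte markers given above. No member of the cell cycle, matrix, p53, respiratory or ribosomal lists passed for the genotype difference by limma. At an unadjusted p under 0.05 there were 3 of 33 cell cycle, 1 of 29 matrix, 1 of 15 p53, 6 of 27 respiratory and 27 of 31 ribosomal protein genes. Of all 12855 genes tested, 2194 reached that level.

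**Figure D5:**
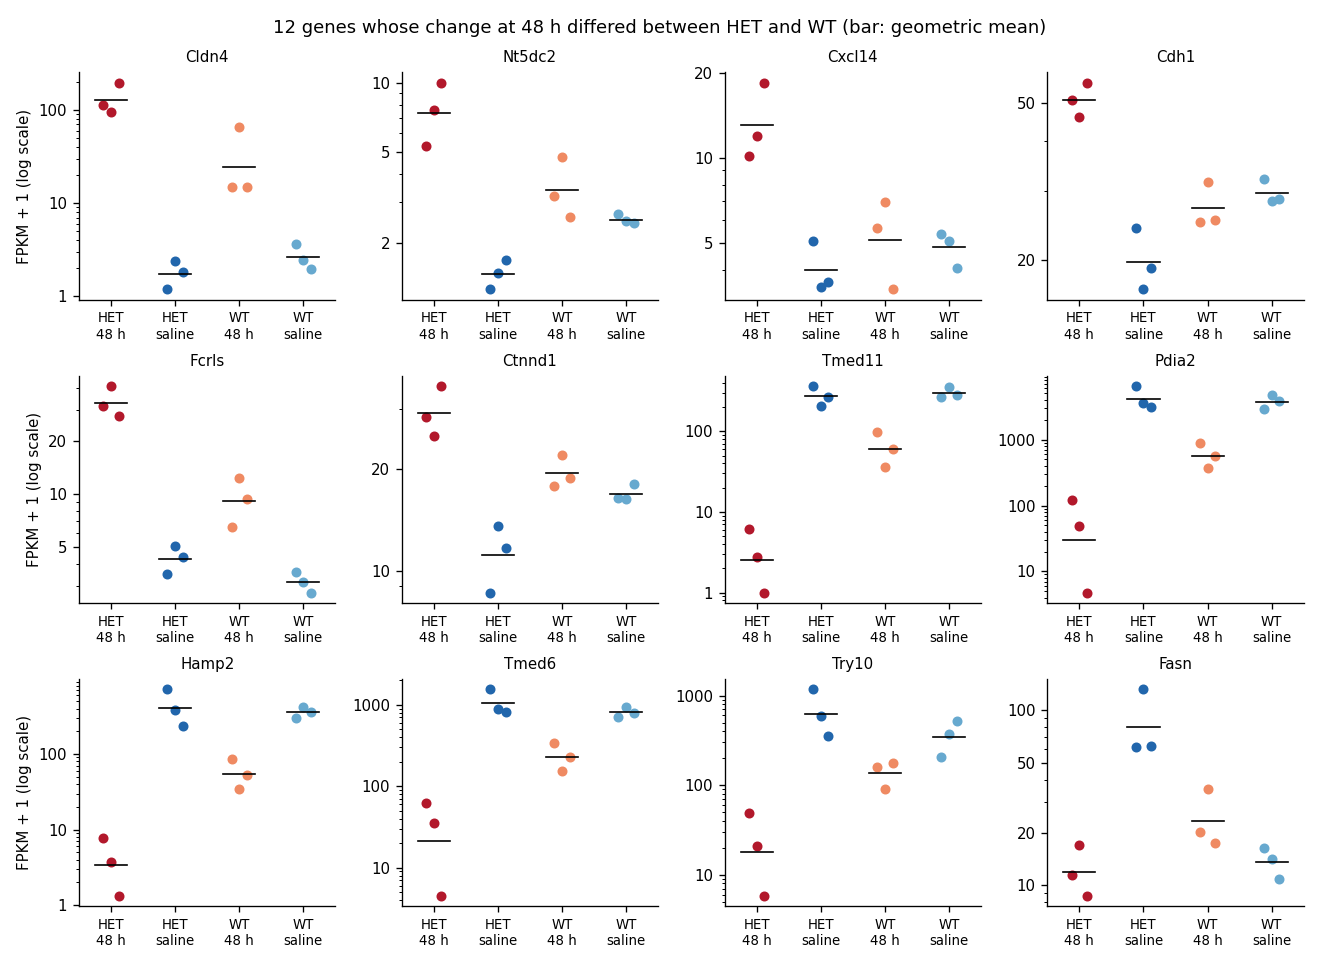
FPKM + 1 on a log scale for 12 genes whose change at 48 h differed between genotypes, the 6 with the largest difference in each direction among those whose HET 48 h and WT 48 h libraries did not overlap, in HET 48 h, HET saline, WT 48 h and WT saline from left to right, with 3 libraries per group and the geometric mean as a bar. Cdh1 is lowest in HET saline and highest in HET 48 h, and the secretory genes Tmed11, Pdia2, Hamp2 and Tmed6 are lowest in HET 48 h.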

How the data were processed

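Polyadenylated RNA of whole mouse pancreas was sequenced. The deposited values, 1 per Ensembl gene, carry no unit in the header and are taken as FPKM. The submitters' processing notes name Bowtie, CASAVA 1.8, Cuffnorm, Cufflinks 2.0.2 and mouse build mm9. Neither the scaling between libraries nor the annotation release is given there. Depth is unknown.

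The table held 36806 genes, 12784 of them at 0 in every library. Every one of the 24 columns bears a sample's title. Replicate numbers follow the order of deposit and pair no animals. The labels call samples of a group separate animals. Where a gene was at 0 throughout a group and at 100 FPKM or more throughout another, its zeros (and the same pattern in neighbouring genes) were treated as missing, for 32 genes and 91 gene and group combinations.

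Genes with at least 1 FPKM in 3 of 24 libraries were tested on log2(FPKM + 1) with limma 3.58.1 in R 4.3.3, with 1 mean per group over all 8 groups (16 residual degrees of freedom), trend and robust moderation and Benjamini-Hochberg adjustment within each of 5 contrasts. Tests were two-sided. The fit was tested on simulated data. Tables and figures used matplotlib 3.10.9, scipy 1.17.1, numpy 2.4.6 and pandas 2.3.3 under Python 3.11.15.

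The comparison, the 43 gene lists and the rule for named genes were chosen with earlier results of these data known. The rule took Nr5a2 and, in each direction, the 12 largest changes (official symbol, higher group averaging 5 FPKM or more, groups not overlapping, neither at 0 throughout), up to 4 members per list with the smallest adjusted p or 2 as values where none passed, and up to 6 genes per direction for the genotype difference. Genes named outside it, chosen after their values were seen, are marked as such, are enzymes listed at 0, are sex-linked or are the few members of a list that moved against the rest. Results for a few genes are not reported here.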

Additional observations from a re-analysis of the deposited data

Results flagged for a closer look

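The 48 h change differed between genotypes for 29 of the named genes by the interaction test of limma, 6 with a higher and 23 with a lower change in HET than in WT. Each value below is the HET change minus the WT change on the log2 scale. Among enzyme and secretory pathway genes the differences were Pdia2 -4.38, Tmed11 -4.41, Try10 -3.77, Amy1 -2.91, Aqp12 -3.22, Cuzd1 -2.90, Derl3 -2.36, Ero1lb -2.56, Edem1 -1.33, Spcs3 -0.87 and Tmed6 -3.78. Among the other genes with a lower change in HET they were Hamp2 -4.16, Rbpjl -2.46, Bhlha15 -3.04, Slc38a5 -2.60, Gnmt -3.21, Egf -1.68, Insig1 -1.65, Fasn -3.51, Thrsp -4.90, Gsn -1.44, Dpep1 -1.36 and Fabp4 -2.77. The 6 genes with a higher change in HET were Cldn4 2.97, Nt5dc2 1.91, Cxcl14 1.61, Cdh1 1.48, Fcrls 1.42 and Ctnnd1 1.19. None of the 12 genes named for this difference kept its call under every alternative, and the whole count was 6 when the spread came from the compared groups alone. The fat genes Fasn, Thrsp and Fabp4 go with adipocyte markers that summed to 304 to 657 FPKM in HET saline and 80.6 to 168 FPKM in WT saline, and the part of adipose tissue was not tested.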

How the results depend on the processing

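The 5682 genes called between HET 48 h and HET saline became 3053 with a mean of at least 5 FPKM required (5619 genes tested) and 9692 with libraries scaled without enzyme and Reg genes, of which 4145 were also called as reported. The other alternatives (pseudocounts of 0.1 and 5, no filter, median of ratios, quantile normalization, zeros kept as values, neither trend nor robust moderation, array weights, the spread of the compared groups alone and, chosen after seeing the data, protein-coding genes only) gave 4115 to 6037, and leaving out 1 library gave 4355 to 5563. That scaling gave 9465 instead of 5615 for HET 24 h against saline and 5714 instead of 3258 for WT, and leaving out 1 library gave 4820 to 5374 and 1839 to 3388. For HET 48 h against 8 h, 6688 became 5775 to 6213. The 154 genotype differences became 290 with quantile normalization, 357 with array weights, 6 with the spread taken from those groups alone and 57 to 383 with 1 library left out. The difference in enzyme and Reg share, -29.74 percentage points, was -33.50 to -25.63 with 1 library left out, -24.29 over all genes with zeros kept and -30.08 without the Reg family. The cause of these shifts was not tested.

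Scaling without enzyme and Reg genes turned the direction of 18 named falls, to 0.17 for Nr5a2, 0.17 for Atf4, 0.30 for Hars, 0.21 for Yars, 0.55 for Kars, 0.08 for Rpl7, 0.06 for Atp5b, 0.11 for Ndufa9, 0.11 for Myc, 0.13 for Fdps, 0.67 for Sc5d, 0.60 for Mvd, 0.28 for Fth1, 0.27 for Arntl, 0.05 for Dpep1, 0.02 for Kdr, 0.21 for Pecam1 and 0.01 for Cd36. Quantile normalization turned Fth1, to 0.53. Of 162 named genes called, 117 kept their call and direction under every alternative run. No paired analysis was possible because the replicate numbers follow the order of deposit and pair no animals. Depth is unknown, so no counting error could be given, and library guide and treatment coincide.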
